A study of Mus musculus with 14 samples.

Results

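The nuclear genome of the mouse encodes most subunits of the oxidative phosphorylation machinery, and their transcripts were followed here across 14 bone marrow-derived RNA libraries. Members were taken by symbol from the deposited count table. A gene was kept when it was protein-coding, when its symbol began with Nduf and a subunit letter and digit, with Sdh, Uqcr, Cox4 to Cox8 or Atp5, and when it had at least 10 counts in at least 4 of the 14 samples. The table listed 52550 genes. By symbol 96 of them matched, 84 of these were protein-coding, and 79 passed the count rule. These 79 members comprised 34 genes of complex I, 4 of complex II, 8 of complex III, 16 of complex IV and 17 of complex V.

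The study asked how the microRNA gene Mir139 is silenced in leukaemia driven by the fusion protein MLL-AF9, and which genes it controls. Mir139 itself was listed at 0 in all 14 libraries, HSPCs of both genotypes included, so these counts do not check the knockout. All mice were C57BL/6 and 8 to 20 weeks old, and hematopoietic stem and progenitor cells (HSPCs) were enriched from marrow of femur and tibiae by depletion of lineage-positive cells. WT HSPCs (4 samples) and Mir139KO HSPCs (4 samples, from mice made with a CRISPR-Cas9 double-nicking strategy) went straight into TRIzol. The 6 MLL-AF9 samples came from WT HSPCs that were kept overnight with a mix of hematopoietic cytokines, transduced with a retrovirus, selected with the matching antibiotic and re-plated at least 2 times in MethoCult, a semi-solid medium. Replicates 1 to 3 carried pMSCV-MLL-AF9-neo and replicates 4 to 6 pMSCV-MLL-AF9-puro. No cultured HSPCs without MLL-AF9 were among the samples, so the fusion, the culture, the selection and the change of cell mixture cannot be told apart in any comparison with these cells. The labels do not say that replicates came from separate animals or separate transductions, and p-values therefore measure the spread between these samples only.

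Oxidative phosphorylation joins electron transport in the inner mitochondrial membrane to ATP synthesis. Complex I takes electrons from NADH and complex II from succinate, complex III passes them to cytochrome c, complex IV reduces oxygen, and complex V (ATP synthase) uses the proton gradient that complexes I, III and IV build. All subunits of complex II and most subunits of the others are made from nuclear genes, while mitochondrial DNA supplies the remaining core subunits, so assembly needs output from both genomes. Resting hematopoietic stem cells are known to lean on glycolysis, and leukaemic stem cells of acute myeloid leukaemia have often been described as dependent on mitochondrial respiration.

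The promoters of these genes share a few short elements. The 8 stretches shown come from members with such an element that were called lower in the MLL-AF9 cells, Sdhb and Uqcr11 among them. Most matched members without these elements were called lower too, as given below. Each is the 100 bases before a transcription start in RefSeq, build GRCm38.p6, written 5′ to 3′ on the strand of the gene. GENCODE places the start of some of these genes further upstream. By its gene ends the capitals of Sdhb, Atp5g2, Atp5h and Cox6b1, and most of those of Atp5k, lie inside the gene. Capitals mark the letters GCGCATGC or their reverse complement in the first 4 (the core of the NRF1 motif, nuclear respiratory factor 1, with overlapping matches joined) and CCGGAAG or its reverse complement in the other 4 (the core of the ETS motif, which GABP binds). The stretches lie, in order, at chr4:140961171-140961270 (plus strand), chr5:108434400-108434499 (minus), chr17:56717662-56717761 (plus), chr15:102671048-102671147 (minus), chr10:80406822-80406921 (minus), chr11:115419920-115420019 (minus), chr7:30626115-30626214 (minus) and chr4:116075071-116075170 (minus).
Sdhb: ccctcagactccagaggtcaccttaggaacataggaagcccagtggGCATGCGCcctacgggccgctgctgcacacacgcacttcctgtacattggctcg
Atp5k: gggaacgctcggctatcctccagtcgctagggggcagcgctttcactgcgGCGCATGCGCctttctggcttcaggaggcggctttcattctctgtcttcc
Ndufa11: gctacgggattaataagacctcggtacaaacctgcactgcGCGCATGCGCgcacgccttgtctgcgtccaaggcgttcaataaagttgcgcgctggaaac
Atp5g2: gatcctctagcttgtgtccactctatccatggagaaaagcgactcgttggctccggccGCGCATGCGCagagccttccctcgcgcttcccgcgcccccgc
Uqcr11: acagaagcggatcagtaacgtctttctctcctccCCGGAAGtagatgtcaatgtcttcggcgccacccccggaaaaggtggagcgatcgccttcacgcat
Atp5h: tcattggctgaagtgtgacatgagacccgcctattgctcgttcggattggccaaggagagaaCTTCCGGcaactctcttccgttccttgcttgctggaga
Cox6b1: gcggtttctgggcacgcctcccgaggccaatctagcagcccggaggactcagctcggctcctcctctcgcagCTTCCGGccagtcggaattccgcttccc
Uqcrh: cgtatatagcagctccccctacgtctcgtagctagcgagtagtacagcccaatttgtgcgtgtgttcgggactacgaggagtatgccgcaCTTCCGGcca

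RefSeq promoters, each running from 250 bases before to 50 bases after a start, were matched to 66 of the 79 members, which gave 71 promoters out of 32851 in the table. Counting both strands, the NRF1 letters GCGCATGC were in 10 of the 71 member promoters (14.1%) and in 2.71% of all promoters. The ETS letters CCGGAAG were in 16 (22.5%) against 8.86% of all, and the YY1 letters AAGATGGC in 10 (14.1%) against 2.75%. SP1 letters (GGGCGG) were about as frequent in member promoters as in all promoters, at 38.0% against 35.7%. The estrogen-related receptor letters TCAAGGTCA were in 2 member promoters (2.82%) and in 0.423% of all. A match is a description of the letters in the window, not evidence of binding. In the MLL-AF9 against WT comparison given later, the 10 members with the NRF1 letters had a median log2 fold change of -1.86 and the 56 matched members without them -1.22. For the ETS letters the medians were -1.70 over 16 members and -1.18 over 50, and for the YY1 letters -1.34 over 10 and -1.39 over 56. Members with the SP1 letters had a median of -1.20 (26 members) and those without -1.51 (40), and for the receptor letters the medians were -1.22 over 2 and -1.36 over 64. With the NRF1 letters 9 of 10 members were called lower, and without them 44 of 56. For the ETS letters the counts were 14 of 16 and 39 of 50, and for the YY1 letters 7 of 10 and 46 of 56. Atp5l, with both the NRF1 and ETS letters, and Atp5j, with the ETS letters, were not called. These differences between medians and counts were not tested.

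Libraries held 35016668 to 45877994 counts on genes, and levels are given as CPM, counts scaled to a library of 1000000 counts after the library sizes were adjusted by TMM factors. The members took 0.738% to 0.875% of all counts in the 8 HSPC libraries and 0.382% to 0.601% in the 6 MLL-AF9 libraries. The share of counts on the non-coding gene model Gm26917 split the HSPC libraries within each genotype: it was 17.0% to 21.9% in WT replicates 1 and 2 and Mir139KO replicates 2 and 3, and 32.7% to 35.4% in WT replicates 3 and 4 and Mir139KO replicates 1 and 4. In the MLL-AF9 libraries it was 7.55% to 10.4%. The labels name no batch that matches this split, and what it stands for was not tested. Libraries are called low-share under 25% and high-share above, and results on the members are also given by class of the HSPC libraries. MLL-AF9 replicates 4 and 6, both puro, resembled each other more than any other pair of libraries but still differed beyond sampling noise.

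Of the 5 protein-coding symbols that did not reach the count rule, Cox4i1, Ndufa13 and Cox6a2 were listed at 0 in all 14 libraries, Cox8c had 2 counts in WT replicate 1 and none elsewhere, and Cox7b2 had 0 to 2 counts. Cox4i1 and Ndufa13 encode widely expressed subunits, and their zeros are not read as absence. The same holds for the zeros of Cox6a2, which has no base of its span outside other genes. In the annotation used here Cox4i1 (chr8:120668222-120674207, GRCm38) lies inside the span of the gene model Gm20388, and Ndufa13 inside that of Yjefn3. Of 1261 protein-coding genes lying wholly inside the spans of other genes 1228 (97.4%) had 0 counts in every library, against 2694 of 20558 other protein-coding genes (13.1%). Among the 818 lying only inside genes of the opposite strand 791 (96.7%) were at 0, and 97 genes with over 1000 bases outside other genes, none of them exonic, had a median total of 468 counts. Reads on whole gene spans, introns included, thus appear to have been counted without strand and dropped where 2 genes overlap, and a member can hold intronic reads. For 5 members a large part of the exonic bases was shared with other genes, and the free share was low (Atp5o 26.7%, Ndufs1 29.6%, Ndufb8 35.4%, Ndufb6 61.0%, Atp5d 73.4%), so their counts cover part of the gene. The other 12 matching symbols, 11 processed pseudogenes and the non-coding Ndufb1-ps, are not members. How reads that fit several near-identical copies were treated is not given in the sources used here.

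Of the 79 members 78 had at least 10 counts in every library, the exception being Cox8b. Members were shorter than the average gene, with a median exonic length of 1587 bases (range 360 to 8086) against 3703 bases over the genes tested, and similar in GC content (median 50.2%, range 37.0% to 63.3%, against 49.7%). Per kilobase of exon, the highest mean level in WT HSPCs was that of Atp5b, the catalytic beta subunit of ATP synthase, at 342 ± 132 CPM per kb (SD, n = 4). Divided by the length of its longest transcript instead, its level was 757 CPM per kb. Next came Cox6a1 (332 ± 167), Cox8a (330.2 ± 150.1), Atp5a1 (322 ± 97.1) and Cox6b1 (279 ± 105) on the same scale. The SDs of these 5 overlap widely, so their order is not resolved. Lowest per kilobase were the isoform genes Cox7a1 (1.75 ± 0.47), Cox4i2 (1.19 ± 0.64), Cox8b (0.68 ± 0.51) and Ndufa4l2 (0.53 ± 0.36), which other tissues use. In the MLL-AF9 cells Cox8a led at 119 ± 18.0 CPM per kb (n = 6), and Ndufv1 moved from place 27 of 79 in WT to place 62.

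Summed over the 79 members, the level was 6679, 7387, 12385 and 13266 CPM in WT replicates 1 to 4 and 12377, 8584, 9008 and 12404 CPM in the 4 Mir139KO replicates. In the 6 MLL-AF9 cultures the sum was 2779 CPM at the lowest, 3515 at the median and 4913 at the highest. Every MLL-AF9 culture was below every HSPC library. Within each HSPC genotype the 2 low-share libraries were below the 2 high-share ones in CPM. Their share of all counts, Gm26917 included, did not show this order, while their share of the counts outside Gm26917 did. The subunits encoded by mitochondrial DNA went the other way: their sum was 3914, 6021, 1659 and 1619.9 CPM in WT, 1488, 3720, 3332 and 1874 CPM in Mir139KO, and 7534, 9036 and 17166 CPM (lowest, median, highest) in the MLL-AF9 cells. The ratio of the nuclear to the mitochondrial sum was 1.23 to 8.19 in WT, 2.31 to 8.32 in Mir139KO and 0.165 to 0.539 in MLL-AF9 cells, without overlap. The libraries were made from total RNA after depletion of ribosomal RNA, without selection for poly(A) tails.

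**Figure D1:**
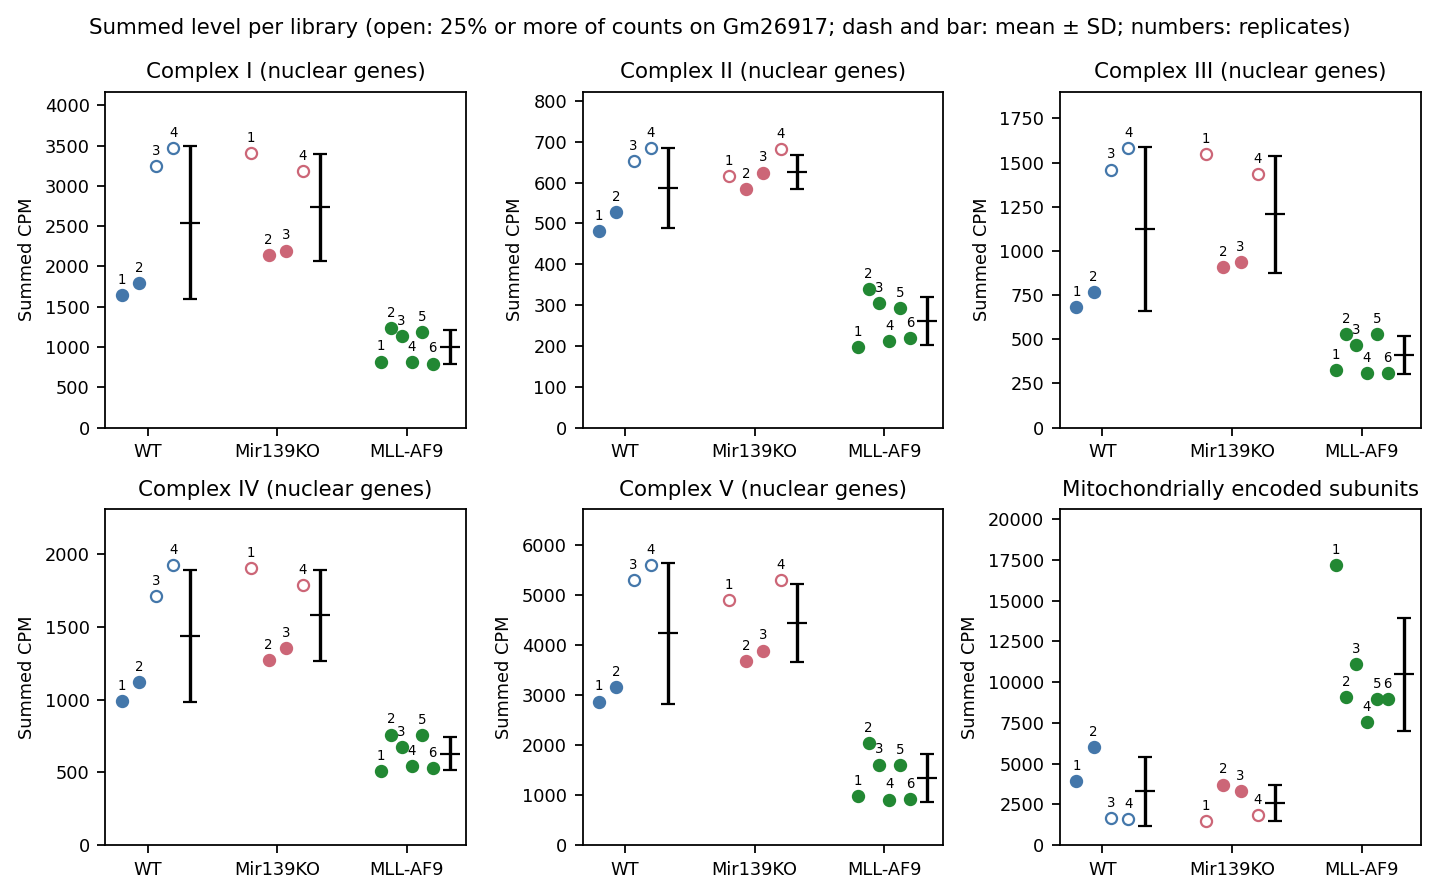
Summed CPM (vertical axis, from 0) for each library of WT HSPCs, Mir139KO HSPCs and MLL-AF9 cells, with a panel for each complex and for the subunits encoded by mitochondrial DNA; points are libraries numbered by replicate, open points have 25% or more of their counts on Gm26917, and dashes with bars give the mean ± SD. The mitochondrially encoded sum lies between 7534 and 17166 CPM in the MLL-AF9 cells and between 1488 and 6021 CPM in the HSPCs.

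The first comparison asked which members differ between MLL-AF9 cells and uncultured WT HSPCs. A gene was called when edgeR's quasi-likelihood test over all 17077 genes tested gave a Benjamini-Hochberg adjusted p under 0.05. Of the 79 members 62 were called lower in MLL-AF9 cells, where 29.4% of all genes were, and 5 were called higher, where 32.8% of all genes were. The 5 include Cox8b, which met the count rule only with the help of the cultures, where it is high. The remaining 12 were not called. The members' median log2 fold change was -1.25, against 0.14 over all genes tested. Members other than the core and isoform genes and the largest changes are named below after their values were seen. In 56 members every MLL-AF9 culture was below every WT library, a pattern that 24.4% of all genes had, and in 2 members (Ndufs4 and Atp5s) every culture was above, which 26.1% of all genes showed. By complex, 29 of 34 members of complex I fell, 4 of 4 of complex II, 7 of 8 of complex III, 9 of 16 of complex IV and 13 of 17 of complex V. The median log2 fold changes were -1.30, -1.05, -1.30, -0.83 and -1.78 in that order. A bulk library cannot tell fewer cells of a type from less RNA per cell.

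**Figure D2:**
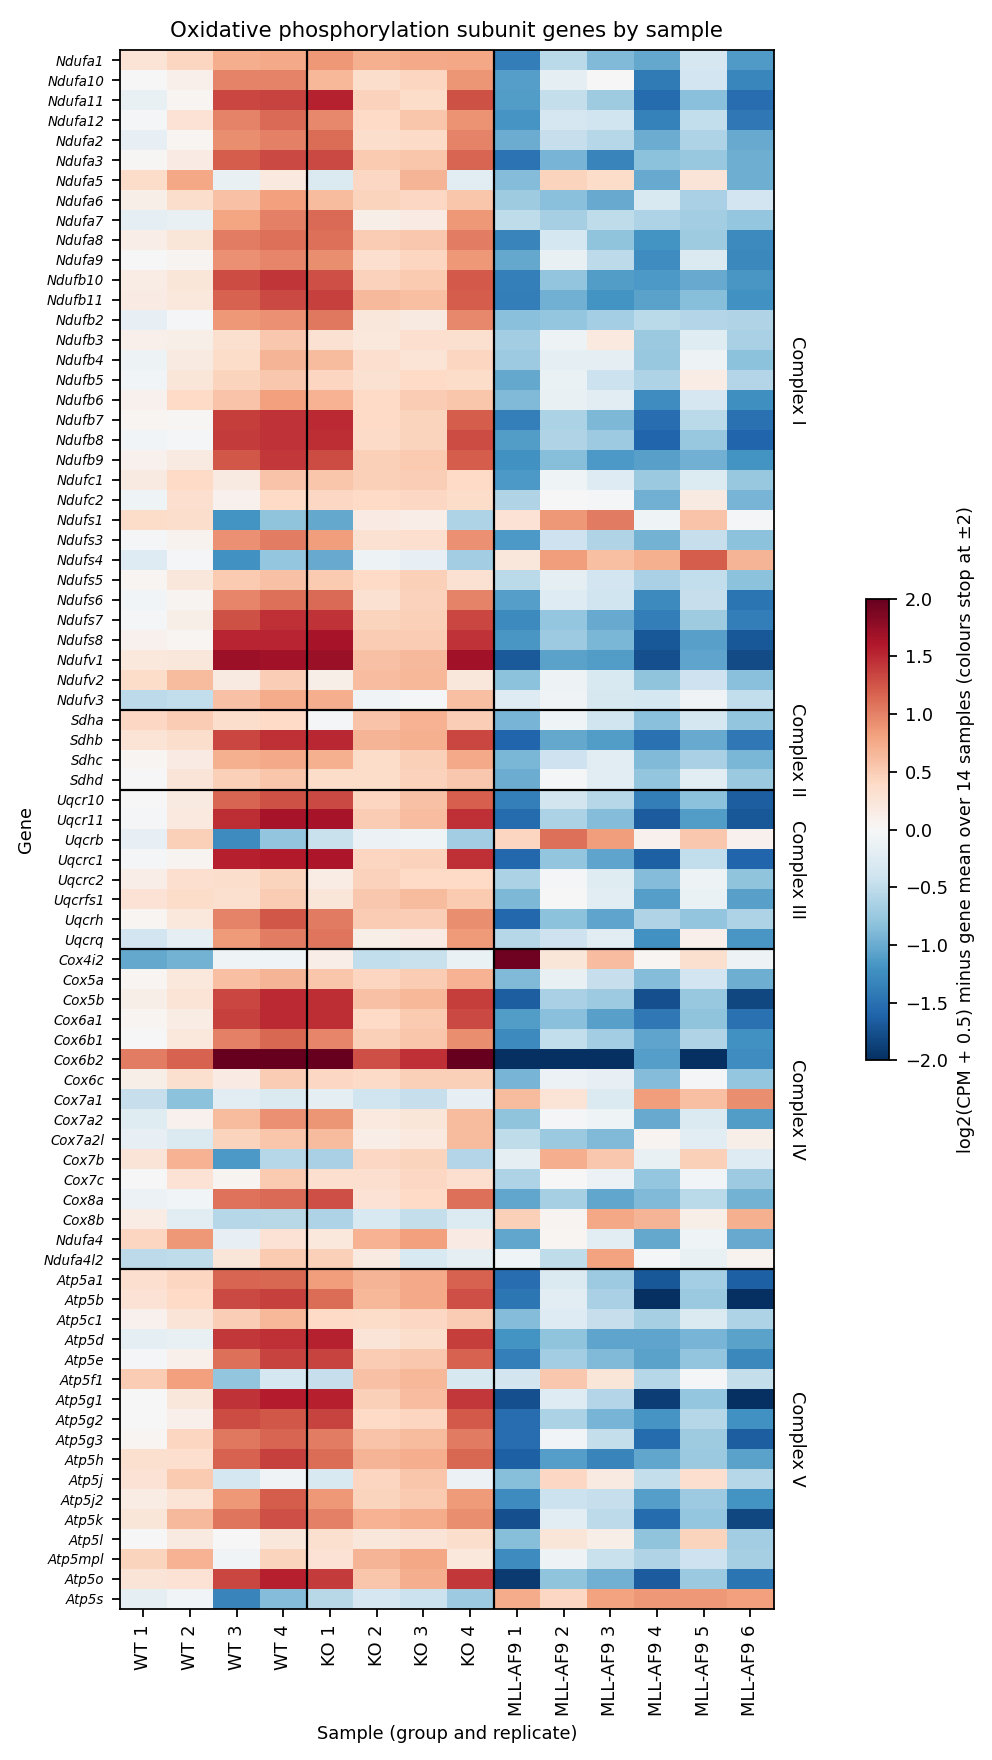
Rows are 78 of the 79 members, grouped by complex, and each column a library; colour gives log2(CPM + 0.5) minus the gene's mean over the 14 libraries, with colours ending at ±2. Most rows are below their mean in the 6 MLL-AF9 columns, and a few such as Ndufs4, Atp5s, Cox4i2, Cox7a1 and Cox8b are above it in most of them.

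Markers of most other cell types fell in the same comparison and stand beside every value on the members. Of all genes 29.4% were called lower there. Markers of stem and progenitor cells were called lower for 7 of 8 genes, erythroid 8 of 8, B cell 5 of 5, plasma cell 4 of 4, T and NK cell 6 of 6, megakaryocyte 4 of 4, stroma and endothelium 4 of 6, neutrophil 2 of 7 and monocyte 2 of 4, with none called higher. The summed erythroid level was 709 to 1470 CPM in WT and 1.92 to 3.95 CPM in MLL-AF9 cells, with Hbb-bs at 0 in all 6 cultures. Summed stem and progenitor markers (Kit, Cd34, Flt3, Gata2, Mpo, Elane, Hlf and Mecom) went from 3979 to 10200 CPM in WT to 398 to 1775 CPM. Mpo and Elane, with mean levels of 5067 and 1408 CPM, made up most of that WT sum (mean 6941 CPM). Neutrophil markers ran from 347 to 8509 CPM in WT and 256 to 3813 CPM in MLL-AF9 cells, and their 2 of 7 calls were near the share of all genes. Of the neutrophil and monocyte markers only Ccr2 had a higher mean in MLL-AF9 cells (138 CPM against 53.9 CPM in WT). F13a1 was nearly level (339 CPM against 343 CPM). The WT samples thus expressed the progenitor genes that their label names, mixed with other blood lineages. What part the change of cell mixture had in the members' values was not tested.

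Complex I core subunits carry the flavin and iron-sulfur groups that lead electrons from NADH to ubiquinone, and most of the nuclear ones were called lower. Ndufv1, which binds NADH and the flavin, was at 104, 106, 297 and 292 CPM in WT replicates 1 to 4 and at 25.7, 34.6 and 43.0 CPM (lowest, median, highest) in the MLL-AF9 cells. All 6 cultures were below all 4 WT libraries, and the 2 high-share WT libraries were the highest. Its log2 fold change was -2.55 ± 0.36 (SE, adjusted p = 0.000118), a 5.86-fold lower level and the second largest fall among members. Ndufs8, an iron-sulfur subunit near the membrane arm, went from 65.3, 63.8, 178 and 178 CPM to 18.7, 28.1 and 37.1 CPM, and its log2 fold change was -2.17 ± 0.36 (adjusted p = 0.000343). Ndufs7, which holds the last iron-sulfur cluster before ubiquinone, went from 53.1, 58.8, 132 and 150.4 CPM to 20.6, 24.4 and 33.1 CPM (-1.95 ± 0.33, adjusted p = 0.000362). For both genes the groups did not overlap.
Ndufs3, a subunit of the peripheral arm, was lower as well (-1.32 ± 0.28, adjusted p = 0.00144). Ndufv2, the iron-sulfur partner of Ndufv1, had 79.5, 96.0, 69.8 and 87.5 CPM in WT, with no gap between high-share and low-share libraries, and 34.5, 40.6 and 57.6 CPM in MLL-AF9 cells. Its fall of -0.97 ± 0.23 (adjusted p = 0.00343) was the smallest among the core genes named here that were called. Ndufs1, the largest core subunit, was at 41.4, 40.8, 13.7 and 18.1 CPM in WT and 30.0, 43.5 and 66.6 CPM in MLL-AF9 cells. The groups overlapped and the gene was not called (0.66 ± 0.38, adjusted p = 0.145), and its 2 low-share WT libraries lay inside the range of the cultures.

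Among the 27 accessory subunits of complex I 23 fell, 1 rose and 3 were not called, with a median of -1.25. The accessory genes that fell most were Ndufb10 (-2.02), Ndufb11 (-1.95), Ndufb9 (-1.95), Ndufb7 (-1.93) and Ndufb8 (-1.91), all of the membrane arm. Ndufb10 stood at 61.3, 65.6, 137 and 150.0 CPM in WT and 21.1, 24.9 and 31.8 CPM in the cultures. Those not called were Ndufa5 (-0.52), Ndufc2 (-0.54) and Ndufv3 (-0.47). The one that rose was Ndufs4, a late-joining subunit whose loss stalls complex I assembly. Ndufs4 was at 30.7, 35.7, 15.5 and 21.3 CPM in WT, 18.0, 34.2, 32.8 and 22.4 CPM in Mir139KO and 43.0, 59.8 and 85.8 CPM in MLL-AF9 cells. Every culture was above every HSPC library, and WT replicates 1 and 2, the low-share pair, were the highest of the 4. The log2 fold change was 1.24 ± 0.29 (adjusted p = 0.00323). Ndufs4 (chr13:114287795-114388258) has by far the longest span of the members, 100464 bases against a median of 7284, and intronic reads may be part of its count, which was not measured. With a correction for GC content its log2 fold change was 0.13 and the call was lost.

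Complex II, the succinate dehydrogenase that also acts in the citric acid cycle, fell as a whole. Sdhb, its iron-sulfur subunit, was at 87.5, 93.1, 184 and 199 CPM in WT and 23.7, 29.9 and 35.8 CPM in MLL-AF9 cells, without overlap. Its log2 fold change of -2.25 ± 0.29 had the smallest adjusted p of all members (6.73e-05). Sdha, the flavoprotein that oxidizes succinate, went from 224, 240.2, 215 and 222 CPM to 88.4, 112 and 159 CPM (-0.97 ± 0.23, adjusted p = 0.00317), and its WT libraries lay close together. The membrane anchors Sdhc (-1.12, adjusted p = 0.00222) and Sdhd (-0.81, adjusted p = 0.0140) also fell. All 4 genes had every culture below every WT library.

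In complex III, 7 of 8 members fell. Uqcrc1, a core protein of the matrix side, was at 210.4, 221, 627 and 643 CPM in WT and 68.1, 86.4 and 150.5 CPM in MLL-AF9 cells (-2.15 ± 0.39, adjusted p = 0.000592). Uqcr11, a small membrane subunit, went from 71.6, 83.3, 204 and 228 CPM to 22.0, 28.8 and 46.4 CPM (-2.24 ± 0.37, adjusted p = 0.000349). In both genes the high-share WT libraries were well above the low-share ones, and the cultures were below all of them. Uqcrc2, the second core protein, fell by less (-0.75, adjusted p = 0.0163), as did Uqcrfs1, the Rieske iron-sulfur protein (-0.90, adjusted p = 0.0135). The small subunits Uqcr10 (-1.75), Uqcrh (-1.61) and Uqcrq (-0.98) fell as well. Uqcrb, a subunit near the ubiquinone site, stood apart with 26.0, 40.8, 11.9 and 16.8 CPM in WT and 31.3, 41.3 and 63.4 CPM in MLL-AF9 cells. WT replicate 2 lay inside the range of the cultures. The gene was not called (0.85 ± 0.36, adjusted p = 0.0556), and its direction turned with a GC correction (-0.73).

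Complex IV was the most mixed, with 9 members lower, 3 higher and 4 not called. Apart from 5 tissue isoforms, 8 of 11 members fell. Cox5b, a zinc-binding matrix subunit, went from 113, 126, 263 and 294 CPM in WT to 29.2, 46.9 and 66.5 CPM (-2.10 ± 0.37, adjusted p = 0.000487). Cox6a1, the non-muscle form of subunit VIa, went from 127, 137, 319.6 and 349 CPM to 43.7, 57.4 and 70.8 CPM (-2.04 ± 0.32, adjusted p = 0.000269). Neither gene's groups overlapped. Smaller falls were those of Cox6b1 (-1.56), Cox8a (-1.49), Cox5a (-1.02), Cox7a2 (-0.94), Cox6c (-0.74) and Ndufa4 (-0.91), the last a subunit first assigned to complex I. Over 31 alternatives to the fit Cox6b1 stayed called lower in 31, Cox5a and Cox8a in 29, Ndufa4 in 23, Cox7a2 in 20 and Cox6c in 19. A GC correction took Cox5a to -2.77 and Ndufa4 to -2.66, and with GC and length corrected Cox8a stood at -0.011 and was not called. Cox7a2l, a factor that joins complexes III and IV, was not called (-0.51 ± 0.28, adjusted p = 0.134). Cox7b (0.25) and Cox7c (-0.60), small membrane subunits, were not called either. Cox7c was called lower in 11 of the 31 alternatives, at -2.87 with a GC correction, while Cox7b was called lower in 3 (-0.99 with a GC correction) and higher in 1 (0.98 against high-share libraries). Nor was Ndufa4l2, the hypoxia-induced relative of Ndufa4, which had 0.248, 0.254, 0.768 and 1.04 CPM in WT and 0.256, 0.526 and 1.38 CPM in MLL-AF9 cells.

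Cox6b2, the testis form of subunit VIb, fell more than any other member. It was at 16.4, 18.5, 36.5 and 37.6 CPM in WT replicates 1 to 4, 42.6, 19.9, 22.5 and 37.6 CPM in Mir139KO and 0.294, 1.07 and 3.40 CPM in the MLL-AF9 cells. All cultures were below all HSPC libraries, and among the cultures replicates 1, 4 and 6 were above 2, 3 and 5. The log2 fold change was -4.14 ± 0.68 (adjusted p = 0.000330), a 17.7-fold lower level. Per kilobase, Cox6b2 made up 7.99% ± 0.42 (SD, n = 4) of the summed level of Cox6b1 and Cox6b2 in WT, 8.36% ± 1.503 in Mir139KO and 1.66% ± 1.57 (n = 6) in MLL-AF9 cells. The cultures reached at most 3.54%, below the lowest HSPC library at 6.89%.

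The other isoform genes called were higher, all at low levels. Cox7a1, the heart and muscle form of subunit VIIa, was at 0.910, 0.599, 1.17 and 1.08 CPM in WT and 1.09, 2.47 and 3.19 CPM in MLL-AF9 cells, and replicate 3 of the cultures lay within the WT range (1.30 ± 0.40, adjusted p = 0.0137). Its share of the 3 related genes Cox7a1, Cox7a2 and Cox7a2l per kilobase was 0.92% ± 0.23 in WT, 0.92% ± 0.08 in Mir139KO and 3.56% ± 1.203 in MLL-AF9 cells, with no overlap. Counted without length, that share was 0.416%, 0.414% and 1.57%. Cox4i2, the lung form of subunit IV, was at 0.476, 0.530, 1.37 and 1.37 CPM in WT and 1.35, 1.91 and 7.11 CPM in MLL-AF9 cells, where replicate 1 alone was above 2.52 CPM.
The log2 fold change of Cox4i2 was 1.54 ± 0.58 (adjusted p = 0.0357), and without MLL-AF9 replicate 1 it was 0.98 and no longer called. Cox8b, the heart and muscle form of subunit VIII, had 24, 12, 3 and 3 counts in WT and 22 to 57 in the cultures, or 0.496, 0.277, 0.100 and 0.111 CPM against 0.433, 0.835 and 1.04 CPM. WT replicate 1 overlapped the cultures. At least 10 counts were reached in 6 of 6 cultures but in 2 of 4 WT and 0 of 4 Mir139KO libraries, so Cox8b passed the count rule through the group where it is high, and its log2 fold change of 1.55 ± 0.53 is a description. The call was lost without WT replicate 3 (1.29) or WT replicate 4 (1.32). The share of Cox8b among Cox8a and Cox8b per kilobase was 0.30% ± 0.30 in WT, 0.14% ± 0.08 in Mir139KO and 1.84% ± 0.78 in MLL-AF9 cells.

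**Figure D3:**
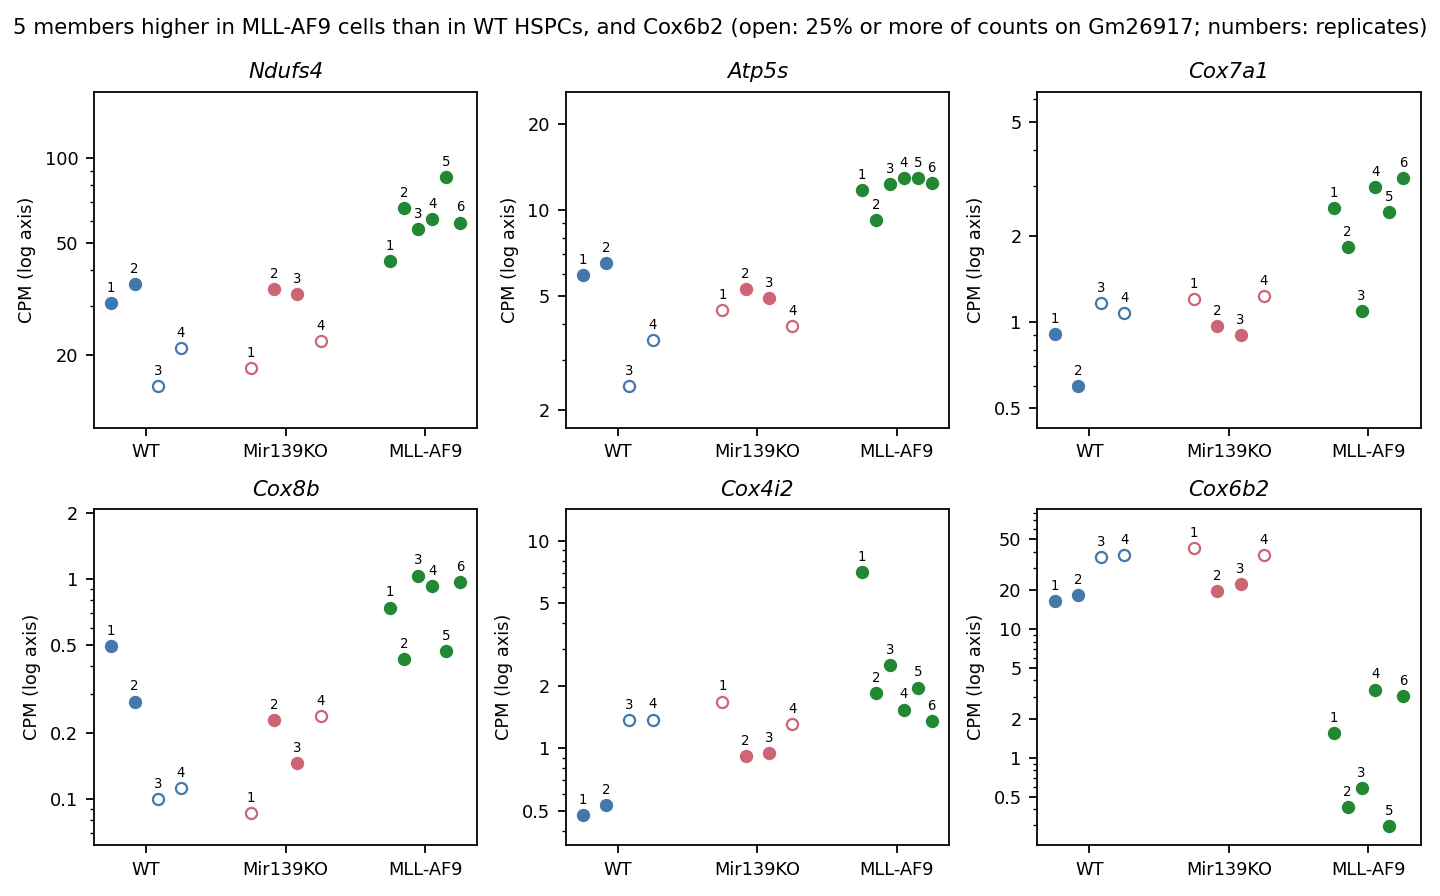
CPM on a log axis in each library for Ndufs4, Atp5s, Cox4i2, Cox7a1, Cox8b and Cox6b2, by group, with replicate numbers and open points for libraries with 25% or more of their counts on Gm26917. Ndufs4 and Atp5s are above all HSPC libraries in every culture, Cox4i2 is highest in MLL-AF9 replicate 1 at 7.11 CPM, and Cox6b2 is below all HSPC libraries.

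Complex V had the lowest median. In its catalytic head, Atp5b was at 927, 1005, 1909.6 and 1960.4 CPM in WT and 176, 368 and 648 CPM in MLL-AF9 cells (-1.98 ± 0.41, adjusted p = 0.00131). Atp5a1, the alpha subunit that alternates with it, went from 722, 768, 1276 and 1266 CPM to 176, 272 and 468 CPM (-1.83 ± 0.34, adjusted p = 0.000705). In both the cultures were below all WT libraries and spread over a wide range. The gamma subunit Atp5c1, the rotor shaft, fell by less (-0.92, adjusted p = 0.00365), and with Atp5d (-1.89) and Atp5e (-1.78) all 5 genes of the catalytic head were called lower.
Atp5g1, Atp5g2 and Atp5g3 encode the same mature c-ring protein behind different import sequences. Atp5g1 was at 88.8, 105, 244 and 267 CPM in WT and 21.4, 39.1 and 75.0 CPM in MLL-AF9 cells (-2.06 ± 0.44, adjusted p = 0.00164). The other 2 fell too, Atp5g2 with -1.79 and Atp5g3 with -1.63. Per kilobase, Atp5g1 supplied 18.0% ± 2.24 of the 3 together in WT, 18.5% ± 1.93 in Mir139KO and 14.6% ± 2.35 in MLL-AF9 cells, and these ranges overlapped. From raw counts the shares were 35.4%, 36.2% and 29.9%.

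In the stalk of complex V, 2 of 4 members fell. Atp5o, the subunit that ties the stalk to the head, went from 31.6, 32.3, 67.6 and 78.4 CPM to 6.60, 11.3 and 15.5 CPM (-2.24 ± 0.35, adjusted p = 0.000234), counted on 26.7% of its exonic bases. Atp5h had -2.04 (adjusted p = 0.000104), while Atp5f1 (-0.26) and Atp5j (-0.24) were not called. With a GC correction Atp5f1 stood at -2.42 and was called lower. Of 4 small membrane subunits, Atp5k (-1.89), Atp5j2 (-1.54) and Atp5mpl (-0.98) fell and Atp5l (-0.30) was not called, except in 3 alternatives with a GC correction (-2.31 with GC alone). Atp5s, coupling factor B, a regulator at the membrane, rose. It was at 5.92, 6.55, 2.44 and 3.53 CPM in WT, 4.47, 5.30, 4.94 and 3.93 CPM in Mir139KO and 9.25, 12.4 and 12.9 CPM in MLL-AF9 cells, with every culture above every HSPC library. The log2 fold change was 1.35 ± 0.33 (adjusted p = 0.00392), and with a GC correction it turned to -0.27.

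**Figure D4:**
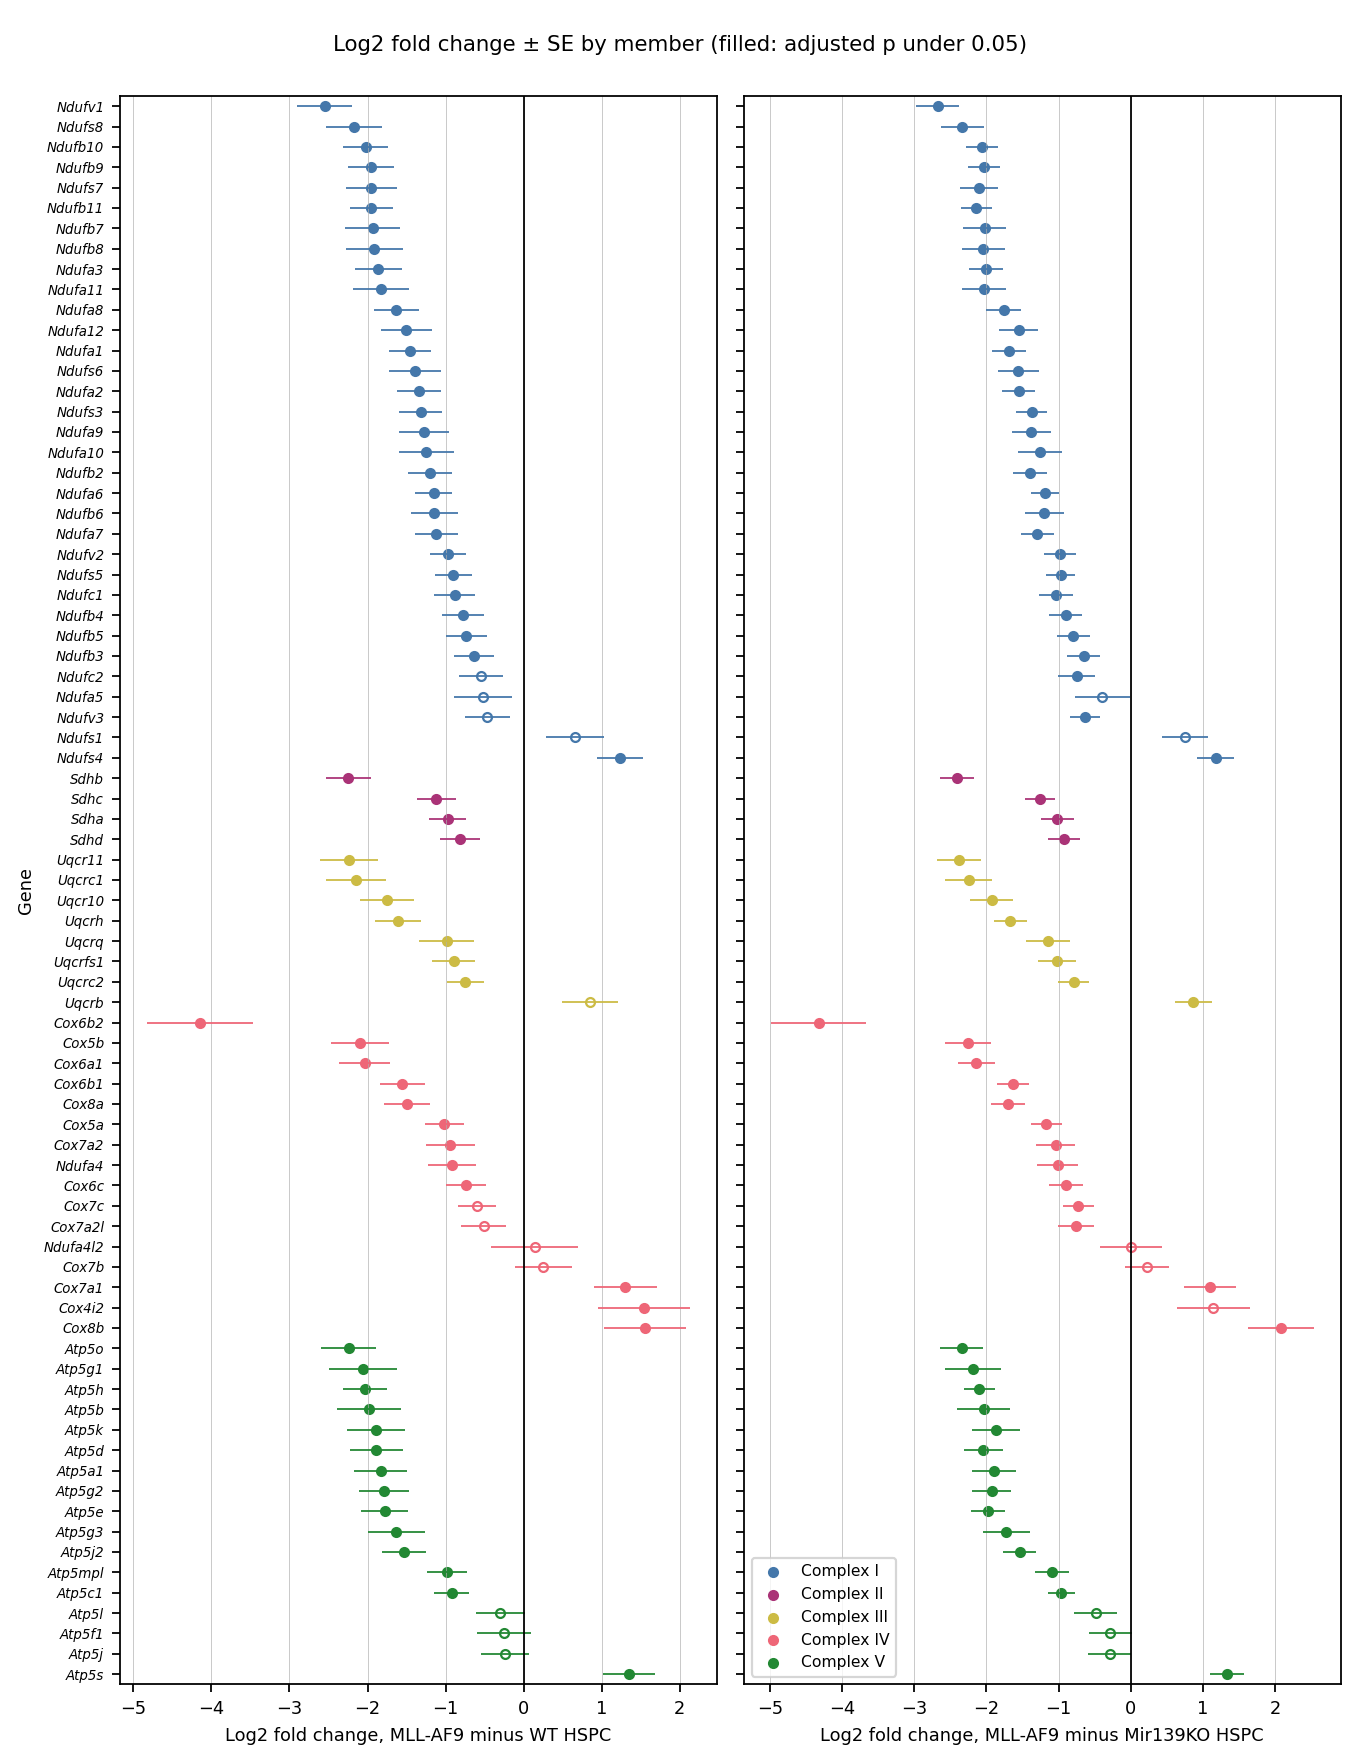
Log2 fold change ± SE of 78 of the 79 members in the MLL-AF9 cells against WT HSPCs and against Mir139KO HSPCs, in 2 panels with the same order of genes; colours give the complex, filled points have an adjusted p under 0.05 and open points do not. In the WT panel 5 filled points lie right of 0 and all other filled points left of it.

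The same MLL-AF9 libraries were compared with Mir139KO HSPCs, so both comparisons share 6 samples. Over 16953 genes tested, 66 members were called lower, where 31.9% of all genes were, and 5 higher, where 37.3% of all genes were. The median log2 fold change was -1.37 over the members and 0.16 over all genes. In 66 members every culture was below every Mir139KO library, against 28.2% of all genes. The 5 largest falls were those of Cox6b2 (-4.33 ± 0.66, adjusted p = 0.000107), Ndufv1 (-2.68 ± 0.29), Sdhb (-2.40 ± 0.23), Uqcr11 (-2.38 ± 0.30) and Atp5o (-2.34 ± 0.30). Ndufv1 was at 300.5, 136, 143 and 289.7 CPM and Sdhb at 207, 116, 119 and 183 CPM in Mir139KO replicates 1 to 4, all above the cultures. Side by side, Atp5b had -1.98 against WT and -2.04 against Mir139KO, and Sdha -0.97 and -1.02.

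The 5 members called higher against Mir139KO were Cox8b (2.08 ± 0.46, a description, as it passed the count rule only through the cultures), Atp5s (1.33 ± 0.23), Ndufs4 (1.18 ± 0.26), Cox7a1 (1.10 ± 0.36) and Uqcrb (0.87 ± 0.26, adjusted p = 0.00928). Uqcrb was at 21.5, 27.0, 27.6 and 18.0 CPM in the Mir139KO libraries, and all cultures were above them. Cox4i2, at 1.68, 0.911, 0.949 and 1.31 CPM in Mir139KO, was not called here (1.15 ± 0.51, adjusted p = 0.0610). Cox7a2l was called lower against Mir139KO (-0.76 ± 0.24, adjusted p = 0.0144) though not against WT, and whether the 2 differences differ was not tested. With a GC correction Atp5s (-0.49), Ndufs4 (-0.034) and Uqcrb (-0.94) turned.

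Loss of Mir139 in HSPCs was compared with edgeR over 15056 genes, and 0 of them (0%) were called, as with DESeq2 (0) and limma-voom (0). Unadjusted p-values under 0.05 were reached by 86 genes (0.571%). Of the 78 members tested, 0 were called by any of the 3 tools and 0 reached that unadjusted p. Their median log2 fold change was 0.10, with a range from -0.15 to 0.37. The largest was that of Cox4i2, at 0.476, 0.530, 1.37 and 1.37 CPM in WT and 1.68, 0.911, 0.949 and 1.31 CPM in Mir139KO, a difference of 0.37 ± 0.43. The smallest unadjusted p of a member was 0.36, for Ndufa1 (24.7, 27.4, 33.7 and 34.7 CPM in WT and 37.3, 33.7, 34.6 and 34.9 CPM in Mir139KO, 0.21 ± 0.22). No member's 2 groups were free of overlap, a state that 0.478% of all genes reached. Part of the spread followed the Gm26917 classes. In the low-share libraries alone 44 of 79 members had an unadjusted p under 0.05 (median 0.34, 0 called), a larger share than the 21% of all genes. In the high-share libraries alone 0 members had such a p (median -0.04), against 3.8% of all genes, and with the class as a covariate 3 had one, against 3.56%, again with 0 called. Each class holds 2 libraries a genotype. The SE of a member's log2 difference was for example 0.32 for Ndufa5 and 0.44 for Ndufs1, so differences of that size were not detectable with these samples.

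Most members also differed in CPM between the classes of a genotype. In WT, 66 of 79 members were higher in the high-share libraries and 13 lower, with a median log2 difference of 0.93 and a range from -1.81 to 1.83. In Mir139KO, 60 were higher and 19 lower (median 0.44), and 73 members had the same sign in both genotypes. These CPM include the TMM factors, which were 1.11 and 1.10 in low-share and 0.653 and 0.660 in high-share WT libraries. In Mir139KO the factors were 1.00 and 0.970 against 0.615 and 0.659. As a share of all counts, the members took 0.738% and 0.811% in low-share and 0.809% and 0.875% in high-share WT libraries. In Mir139KO they took more in the low-share libraries, 0.861% and 0.873% against 0.761% and 0.818%. Of the counts outside Gm26917 the members took 0.889% and 0.987% in low-share and 1.25% and 1.32% in high-share WT libraries. In Mir139KO that share was 1.09% and 1.12% in low-share against 1.17% and 1.21% in high-share libraries. Summed stem and progenitor markers, by mean level mostly Mpo and Elane, moved with the class. They were at 3979 and 4053 CPM in low-share and 10200 and 9532 CPM in high-share WT libraries. In Mir139KO they were at 5615 and 5379 CPM against 10857.5 and 8581 CPM. The citric acid cycle and mitochondrial ribosome lists were also higher in both high-share libraries of each genotype than in the low-share ones. Whether cell mixture had a part in the members' shift was not tested. The members higher by the largest factor in high-share WT libraries were Atp5d (3.03-fold), Uqcrc1 (2.94-fold), Ndufv1 (2.81-fold) and Uqcr11 (2.78-fold), and those lower were Ndufs1 (2.59-fold), Cox7b (2.53-fold), Atp5f1 (2.34-fold) and Uqcrb (2.33-fold). Across the 79 members, which share libraries and are not independent, the shift followed GC content with Pearson's r = 0.60 in WT and 0.61 in Mir139KO. The log2 fold change between MLL-AF9 cells and WT followed GC content with r = -0.38, with -0.45 against high-share libraries and -0.13 against low-share ones. After the GC correction it ran the other way (r = 0.42), so corrected fold changes still followed GC content. Over 17048 genes the uncorrected log2 fold change followed GC content with r = -0.29.

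**Figure D5:**
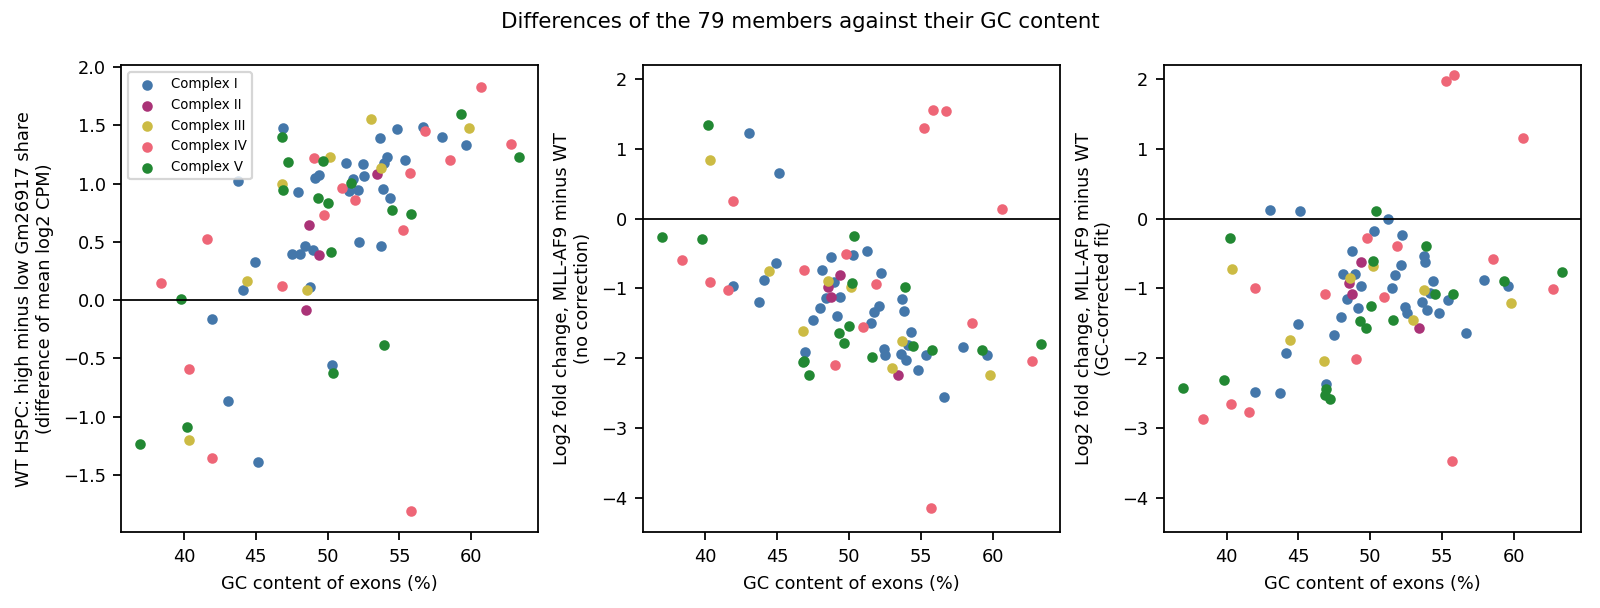
The horizontal axis, labelled for exons, gives the GC content (%) of the longest transcript of each of the 79 members. Vertical axes give the log2 difference between high-share and low-share WT libraries and the log2 fold change between MLL-AF9 cells and WT. The fold change is shown as fitted and with a GC correction, and points are coloured by complex. The first difference rises with GC content (r = 0.60), and the fitted fold change falls with it (r = -0.38).

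Whether library composition had a part in the members' fall was not tested, but the fall was measured against each class of WT libraries. All 6 MLL-AF9 libraries were low-share (7.55% to 10.4%), still below the 17.0% and 17.8% of the 2 low-share WT libraries. Against the 2 low-share WT libraries alone 50 of the 62 members called lower were called again, and the members' median was -0.93. Against the 2 high-share libraries 61 of 62 were called, with a median of -1.74. With a GC correction 57 of 62 were called, and with a correction for exonic length 53 of 62. With libraries scaled by total counts alone, without TMM factors, 38 members were called lower and 6 higher. Taking the low-share, high-share, GC and length fits together 44 of the 62 were called lower in every one, and over all 31 alternatives 27 were. Ndufv1, Sdhb, Atp5b and Cox6b2 were among the larger falls with a GC correction as well (-1.64, -1.57, -1.45 and -3.47). Of the 5 members called higher, 0 were called in all alternatives: Ndufs4 and Atp5s were in 28 of 31. Cox7a1 was called in 26, Cox8b in 25 and Cox4i2 in 23 of the 30 that tested them.

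The 6 cultures differed among themselves. In 60 of the 79 members (75.9%) replicates 2, 3 and 5 were the 3 highest cultures, an order that 25.8% of all genes tested had, and it crosses the 2 vectors. The median log2 difference between the means of replicates 2, 3 and 5 and of replicates 1, 4 and 6 was 0.63. It was largest for Atp5g1 (1.37), Ndufa5 (1.35), Atp5b (1.32) and Atp5k (1.25). All 4 members of complex II and 7 of 8 of complex III had this order. The order was not particular to the members. Summed levels of the mitochondrial ribosome list were 1953, 1822 and 1742 CPM in replicates 2, 3 and 5 and 1117, 1044 and 1047 CPM in replicates 1, 4 and 6. The citric acid cycle list was split the same way, and the mitochondrially encoded sum was not. Cox6b2 (-2.61) and Cox7a1 (-0.77) were the 2 members in which replicates 1, 4 and 6 were highest. The cultures are not grouped this way in the labels, replicates 4 and 6 were the most alike libraries, and no test was made.

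Between the vectors, 3 puro against 3 neo cultures, edgeR called 0.873% of the 16503 genes tested (93 higher and 51 lower with puro) and 0 of the 79 members, as did DESeq2 and limma-voom for the members (0 each). A single member, Cox7a2l, had an unadjusted p under 0.05, as had 13.7% of all genes. It was at 79.9, 68.4 and 62.0 CPM in neo replicates 1 to 3 and at 119, 98.7 and 124 CPM in puro replicates 4 to 6. The puro cultures were all higher (0.70 ± 0.21, adjusted p = 0.203). In 6 members (Ndufa6, Ndufb2, Uqcrh, Cox7a2l, Atp5h and Atp5s) every puro culture was above every neo culture and in 0 below, against 19.9% of all genes without overlap in either direction. The members' median was -0.22. Without replicate 5 the members with an unadjusted p under 0.05 numbered 20 (27.6% of all genes) and without replicate 1 they numbered 14 (18% of all genes), with 0 called. Replicates 4 and 6, the most alike libraries, are 2 of the 3 puro cultures. With their counts summed edgeR called 5 of 17363 genes, and 0 members had an unadjusted p under 0.05, against 8.09% of all genes.

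Genes that work with the members were read from lists chosen for their known roles. Of all genes tested against WT 29.4% were called lower and 32.8% higher. Of 12 subunits encoded by mitochondrial DNA that were tested against WT, 11 rose and 0 fell, with a median of 1.75. mt-Co1, a catalytic subunit of complex IV, had 1.64 ± 0.46 (adjusted p = 0.00839), mt-Nd4 of complex I had 1.86 ± 0.33 (adjusted p = 0.000574), and mt-Co3 was not called (0.14). Of 7 nuclear-encoded partners outside the symbol rule 3 were called lower and 0 higher (median -0.71). Whether so short a list differs from all genes was not tested. Cyc1, the cytochrome of complex III, was among the 3 (-2.06 ± 0.40, adjusted p = 0.000866). In the citric acid cycle 9 of 13 genes fell and 2 rose (median -1.03). Idh3g fell by 1.88 and Mdh2, malate dehydrogenase, by 1.59 on the log2 scale, while Dld (1.84) and Suclg2 (1.47) rose. Proteins of the mitochondrial ribosome, which translates the mitochondrial transcripts, were lower for 46 of 72 genes and higher for 2 (median -1.03).

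Assembly factors, which build the complexes without staying in them, were divided: 17 of 45 fell and 9 rose, with a median of -0.13. Uqcc2, needed for complex III, had -2.04 ± 0.33 (adjusted p = 0.000308). Ttc19, also of complex III, had 3.00 ± 0.42 (adjusted p = 0.000117), Sdhaf3 of complex II had 2.54 ± 0.45 and Nubpl, which serves complex I, 2.44 ± 0.26. Of 17 regulators of mitochondrial genes 5 rose and 4 fell (median 0.43), shares close to the 32.8% and 29.4% of all genes. Nrf1, whose letters mark 10 member promoters, had 0.06 ± 0.23, and Gabpa and Gabpb1, which encode the 2 subunits of GABP, had 1.54 ± 0.45 (adjusted p = 0.0107) and 1.68 ± 0.34 (adjusted p = 0.00122). Pprc1, a coactivator of nuclear respiratory factors, fell by 2.06, and Polrmt, the mitochondrial RNA polymerase, by 2.27 on the log2 scale. Against Mir139KO, where 31.9% of all genes were called lower and 37.3% higher, 11 of 12 mitochondrial subunits were higher and 0 lower. In the citric acid cycle 9 of 13 genes were lower and 3 higher, and of 72 ribosomal protein genes 49 were lower and 2 higher. Assembly factors were divided there too, with 18 of 45 lower and 13 higher. Between the HSPC genotypes 0 genes of these lists were called.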

How the data were processed

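Total RNA was depleted of ribosomal RNA (KAPA RNA HyperPrep with RiboErase) and sequenced on a NovaSeq for 14 samples (4 WT HSPC, 4 Mir139KO HSPC, 6 MLL-AF9). Per the submitters' processing notes and the study's methods, the authors checked reads with FastQC 0.11.8 and MultiQC, aligned them with STAR 2.5.3e to GRCm38 (mm10), counted them with featureCounts 1.6.0 and tested them with DESeq2 1.22.2. The deposited values are raw counts per gene, and 10 columns of another series in a wider table were left out. Strand and multi-mapping settings are not given in the sources used here. Symbols, spans, lengths and GC content came from GENCODE M21 on GRCm38, which matched 52403 of 52550 genes. GC content is that of a gene's longest transcript, while exonic length covers all its exons.

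Each comparison was fitted on its own groups with edgeR 4.0.16 (glmQLFit, robust, and glmQLFTest, TMM factors, R 4.3.3), over genes with at least 10 counts in as many samples as the smaller group, and p-values were adjusted by Benjamini-Hochberg over all genes tested. Limma 3.58.1 (voom) and DESeq2 1.42.0 were alternatives. The GC and length corrections took out a spline with 5 degrees of freedom per library. A count of 0 allows up to 3 counts, or 0.0654 to 0.0857 CPM by library, counting error only. Levels per kilobase divide CPM by exonic length, although intronic reads may be included. The test was checked on simulated counts.

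Named were the core and isoform genes, the 5 largest rises and falls called in each comparison and called members that moved against their complex, and 1 member is not reported by name here. The members and lists were chosen with earlier results of these data known. Replicate numbers were checked for pairing: same-numbered WT and Mir139KO samples had deviations correlated at -0.69, 0.79, -0.72 and 0.62. The negative values join a low-share with a high-share library, and the positive ones join libraries of the same class. The correlations therefore cannot show whether the numbers pair the samples.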

Additional observations from a re-analysis of the deposited data

Results flagged for a closer look

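The levels of the 79 members and of 6 sums were examined in each of the 3 groups for a library far from the others, which gave 4 results over 255 groups, where chance gives about 1 in 20. Cox4i2 was 7.11 CPM in MLL-AF9 replicate 1, while the other 5 cultures lay between 1.35 and 2.52 CPM. Atp5s was 9.25 CPM in MLL-AF9 replicate 2, below the 11.8 to 12.9 CPM of the others and still above every HSPC library. Ndufa4l2 was 1.38 CPM in MLL-AF9 replicate 3 against 0.256 to 0.627 CPM in the others, at 13 to 76 counts per culture. Cox7c was 69.9 CPM in Mir139KO replicate 3, and the other 3 lay between 65.6 and 65.8 CPM.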

How the results depend on the processing

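Against WT, 67 members were called as fitted, and 31 alternatives gave 44 to 70. The lowest, 44 (6 higher, 38 lower), came from scaling by total counts only, which moved the median of all genes from 0.14 to 0.69, so that the members' median relative to it was -1.25 in place of -1.38, and which made 6744 of 9873 calls over all genes higher in place of 5603 of 10630. Leaving out each library in turn gave 60 to 67 against WT, 71 to 72 against Mir139KO, 0 between the HSPC genotypes and 0 between the vectors. A fit with the replicate number as a block gave 53 members against WT, 70 against Mir139KO and 0 in the other comparisons, and 55 and 67 with a GC correction added. Whether replicate numbers pair these samples was not settled. Against Mir139KO 71 were called and total counts gave 49. Over all genes, calls between the vectors ran from 0 to 1326, the highest with DESeq2, and were 990 without replicate 5, with 0 members each time.

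Directions of members named in the text turned in these cases, and apart from fewer samples the cause was not tested. Against WT, the GC, the GC and length, and the block with GC fits gave Atp5s -0.27, -0.32 and -0.30, Uqcrb -0.73, -0.39 and -0.62, and Cox7b -0.99, -0.83 and -0.96. Cox7b was -0.32 against low-share libraries and from -0.0076 (without WT replicate 3) to 0.57 with a library left out, and Cox7a2l was 0.17 with total counts. With total counts Atp5f1 was 0.18, Atp5j 0.25, Atp5l 0.26, Ndufv3 0.26 and Ndufc2 0.032. Ndufc2 was 0.015 with a length correction, Ndufv3 0.19 against low-share libraries and 0.081 in the block with GC, and Atp5j 0.11 with GC, 0.020 in the block with GC and 0.0020 against high-share libraries. Atp5f1 was 0.39 against high-share libraries, 0.0088 with neo cultures only and from -0.49 to 0.0015 with a library left out. Ndufa4l2 was -0.62 against high-share libraries, -0.032 with puro cultures only and from -0.24 to 0.55 with a library left out. Against Mir139KO, the same 3 fits gave Atp5s -0.49, -0.50 and -0.51, Ndufs4 -0.034, -0.036 and -0.15, and Uqcrb -0.94, -0.51 and -0.83. Ndufs1 was -0.057 with GC and length, and Cox7a2l 0.0087 with total counts. Atp5f1, Atp5j, Atp5l, Ndufa5, Ndufb3, Ndufv3 and Cox7b, not described in that comparison, turned there too in some alternatives. Ndufa4l2, at 0.000318 as fitted, was -0.047 with RLE factors, -0.044 with DESeq2, -0.076 with voom, -0.079 with the block, -0.00204 without immunoglobulin, haemoglobin and mitochondrial genes, -1.6e-05 without Gm26917, -0.23 against high-share libraries, -0.16 with puro only and from -0.38 to 0.27 with a library left out.

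From raw counts in place of levels per kilobase, Cox6b2 was 11.97% of its pair in WT and 12.5% in Mir139KO, Cox7a1 was 0.416%, 0.414% and 1.57% of its set in WT, Mir139KO and MLL-AF9 cells, and Atp5g1 35.4%, 36.2% and 29.9%. With the longest transcript as length, Atp5b in WT was 757 CPM per kb. Depth limits Cox8b, Cox4i2, Cox7a1 and Ndufa4l2, which have under 400 counts in any library.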
